A study of Homo sapiens with 6 samples.

Results

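The enzymes described here build the sugar bridge by which glycosaminoglycan chains are attached to proteoglycans and extend that bridge into heparan sulfate. The set was 10 genes, XYLT1, XYLT2, B4GALT7, B3GALT6, B3GAT3, FAM20B, EXT1, EXT2, EXTL2 and EXTL3, found by their symbols among the 19727 genes of the expression table. The set was put together with B3GALT6 in view, because this gene was known to be much lower in OE than in NC. The values of the members in that comparison were therefore given as a description. Where calls of members from the fit are given, the share over all genes stands beside them. Nothing is read from those calls. Of the 10 genes, 9 averaged 1 FPKM or more across the libraries and entered the fit across 12322 genes, and XYLT1 did not.

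RNA-seq was performed on DU145, an established human prostate cancer cell line. In the OE group, the cells carried a lentivirus for circCSPP1, a circular RNA of the CSPP1 gene. The NC group carried the control lentivirus and was labelled as normal in genotype. Each group had 3 libraries, both groups came from stable lines selected with puromycin, and nothing in the sources used here said whether replicates were separate cultures, so that p-values measured only the spread between these libraries. The level of circCSPP1 itself was not analysed here.

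Proteoglycans carry long sugar chains on serine residues of a core protein. A xylosyltransferase (XYLT1 or XYLT2) adds the first sugar, xylose. Galactosyltransferase I (B4GALT7) and galactosyltransferase II (B3GALT6) then add a galactose each, and glucuronyltransferase I (B3GAT3) adds a glucuronic acid that completes the linker. The kinase FAM20B phosphorylates the xylose. From there the chain becomes either chondroitin sulfate or heparan sulfate; the EXT1 and EXT2 polymerase and the EXT-like proteins EXTL2 and EXTL3 belong to the heparan sulfate branch. Heparan sulfate at the cell surface binds growth factors, and inherited loss of linker enzymes, B3GALT6 included, affects bone, skin and connective tissue.

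B3GALT6 had the largest difference of the set. Its level was 17.2, 15.1 and 17.5 FPKM in NC replicates 1 to 3 and 4.36, 3.51 and 4.45 FPKM in OE replicates 1 to 3. The highest OE library lay far below the lowest NC library, and the libraries of each group lay close together. The mean was 16.6 ± 1.30 FPKM in NC and 4.11 ± 0.519 FPKM in OE (SD, n = 3 each), a ratio of 0.247. On the log2(FPKM + 1) scale, which understates the change of low genes, the fold change (OE minus NC) was -1.79 with a standard error of 0.12. In bulk RNA, fewer cells that express a gene and less RNA per cell cannot be told apart.

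**Figure D1:**
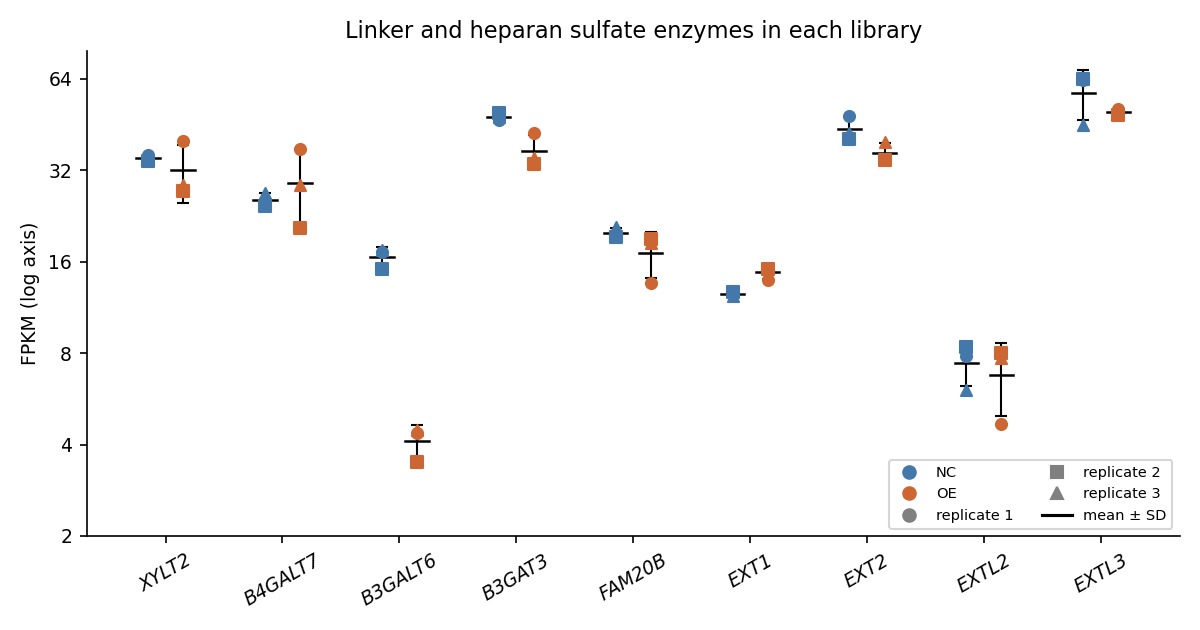
FPKM (log axis) of the 9 members that entered the fit, in each of the 6 libraries; blue marks are NC, orange marks are OE, the shape gives the replicate, and black lines are the mean ± SD of 3 libraries. B3GALT6 sits at 15.1 to 17.5 FPKM in NC and 3.51 to 4.45 FPKM in OE, and no other member has a gap between the groups of that size.

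The first enzymes of the linker differed less. Xylosyltransferase 1 (XYLT1) was close to absent, at 0.01, 0 and 0.01 FPKM in NC and 0, 0.02 and 0 FPKM in OE, which corresponded to 0 to 7 fragments in any library, and no fold was given. XYLT2 was therefore the xylosyltransferase with a measurable level in these cells. It was at 36.0, 34.5 and 34.9 FPKM in NC and at 39.9, 27.4 and 28.6 FPKM in OE, so the groups overlapped (log2 fold change -0.15, standard error 0.15). B4GALT7, which adds the galactose before the one that B3GALT6 adds, was at 25.2, 24.4 and 27.0 FPKM in NC and at 37.7, 20.7 and 28.7 FPKM in OE (log2 fold change 0.14, standard error 0.20). In both genes OE replicate 1 was the highest of the 6 libraries and OE replicate 2 the lowest.

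B3GAT3, the enzyme that completes the linker, was lower in every OE library than in every NC library. It was at 46.7, 49.5 and 48.0 FPKM in NC and at 42.6, 33.6 and 35.2 FPKM in OE, with means of 48.1 ± 1.39 and 37.1 ± 4.79 FPKM (SD, n = 3 each; log2 fold change -0.37, standard error 0.11). The xylose kinase FAM20B was at 19.5, 19.3 and 20.8 FPKM in NC and at 13.7, 19.0 and 18.5 FPKM in OE (log2 fold change -0.22, standard error 0.14). Its groups did not overlap either, though OE replicates 2 and 3 came within 1 FPKM of the lowest NC library.

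The 4 members of the EXT family did not move one way. EXT1, a subunit of the polymerase, was the member whose OE libraries were all above its NC libraries, at 12.6, 12.7 and 12.3 FPKM in NC and 13.9, 15.2 and 15.2 FPKM in OE (log2 fold change 0.22, standard error 0.095). Its partner EXT2 was at 48.4, 40.5 and 42.5 FPKM in NC and, in all OE libraries lower, at 34.7, 34.7 and 39.8 FPKM (log2 fold change -0.26, standard error 0.11). EXTL2, a transferase that acts on the linker, was the lowest member in NC apart from XYLT1, at 7.85, 8.38 and 6.07 FPKM, against 4.68, 7.99 and 7.69 FPKM in OE (log2 fold change -0.13, standard error 0.20). EXTL3, which starts the heparan sulfate chain, was the highest member in both groups, at 63.4, 64.1 and 45.2 FPKM in NC and 50.8, 48.8 and 49.5 FPKM in OE (log2 fold change -0.19, standard error 0.14). EXTL2 and EXTL3 overlapped between the groups, and the low library in NC was replicate 3 in both.

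Over the 9 fitted members the median log2 fold change was -0.19, with 2 members higher in OE and 7 lower. Without B3GALT6 the median was -0.17 over 8 members. Over all 12322 genes the median was -0.028, with 5674 higher and 6648 lower. At a Benjamini-Hochberg adjusted p under 0.05 (limma), 1 member of 9 was called, B3GALT6, beside 11.4% of all genes tested (6.66% lower and 4.69% higher). The groups did not overlap for 5 of the 9 members, 1 higher and 4 lower in OE, beside 36.4% of all genes tested. The set was chosen on this comparison, so nothing is read from these counts.

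**Figure D2:**
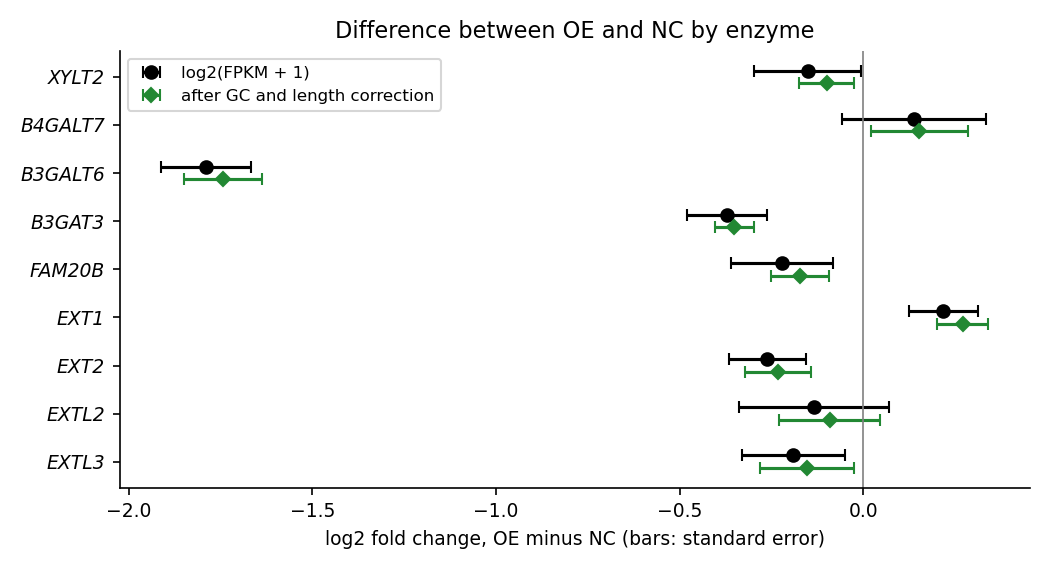
Log2 fold change (OE minus NC) with its standard error for the 9 fitted members, on log2(FPKM + 1) (black circles) and after a correction of each library for GC content and transcript length (green diamonds). B3GALT6 is at -1.79 and -1.74, and the other 8 members lie between -0.37 and 0.27 on either scale.

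FPKM is a level per length, so the members could also be ranked among themselves. By mean FPKM the order in NC was EXTL3, B3GAT3, EXT2, XYLT2, B4GALT7, FAM20B, B3GALT6, EXT1, EXTL2 and XYLT1. Of these neighbours, EXTL3 and B3GAT3 overlapped in their libraries, as did B3GAT3 and EXT2, and the others were separate. In OE, B3GALT6 went from place 7 to place 9, below EXTL2, and EXT1 and EXTL2 moved up a place each. In OE the libraries overlapped for B3GAT3 and EXT2, for EXT2 and XYLT2, for XYLT2 and B4GALT7, and for FAM20B and EXT1. The FPKM of B3GALT6 divided by that of B4GALT7, the enzyme of the step before, was 0.681, 0.620 and 0.650 in the NC libraries and 0.116, 0.170 and 0.155 in the OE libraries. Divided by B3GAT3, the enzyme of the step after, it was 0.368, 0.306 and 0.365 in NC and 0.102, 0.104 and 0.126 in OE. B3GALT6 was chosen for its lower level in OE, so lower ratios in OE followed from that choice, and the ratios to all 8 other fitted members were lower in every OE library than in every NC library.

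OE replicate 1 stood apart from the other OE libraries, and part of its departure went with base composition. The deviation of OE replicate 1 from the mean of all libraries followed GC content and transcript length for 40.9% of its variance, that of OE replicate 2 for 25.5%, that of OE replicate 3 for 5.84%, and those of the NC libraries for 0.451 to 0.946%. Across genes, OE replicate 1 correlated at 0.970 and 0.979 with the other OE libraries, which correlated with each other at 0.990, against 0.991 to 0.992 within NC. The members covered a wide range of GC content. FAM20B, EXT1 and EXTL2 were at 43.2 to 43.9% GC and lay lower in OE replicate 1 than in the mean of OE replicates 2 and 3, by 0.43, 0.12 and 0.64 on the log2 scale. B4GALT7, XYLT2, B3GAT3 and B3GALT6 were at 61.6 to 64.3% GC and lay higher in it, by 0.61, 0.50, 0.30 and 0.11. After a loess correction of each library for GC content and length, these departures were -0.19, 0.13 and -0.33 for the first 3 genes and 0.32, 0.21, -0.012 and -0.22 for the other 4.

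**Figure D3:**
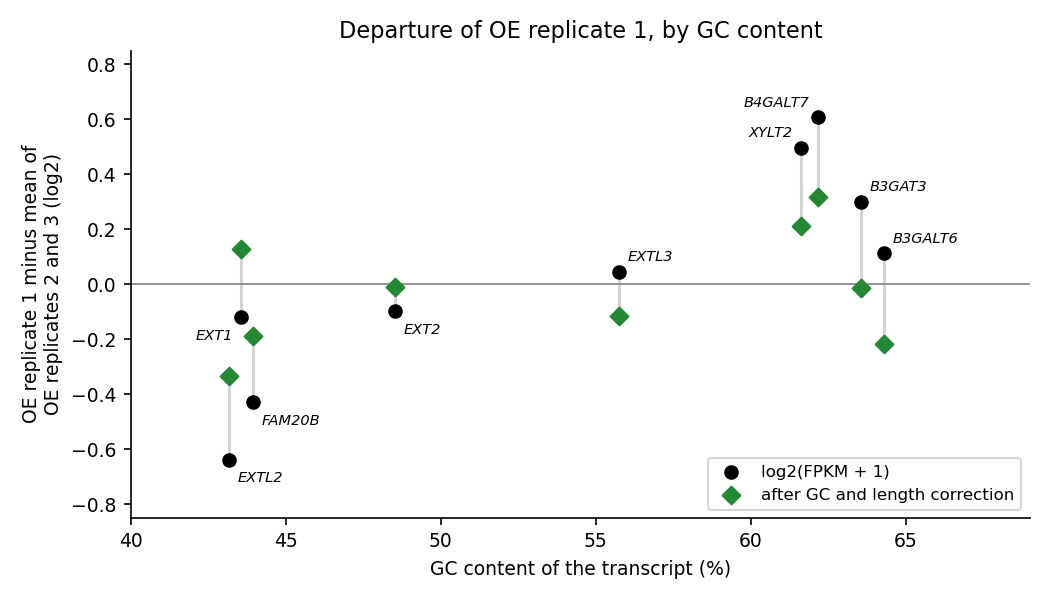
Departure of OE replicate 1 from the mean of OE replicates 2 and 3 (log2) against the GC content of the transcript (%) for the 9 fitted members, before (black circles) and after (green diamonds) the correction for GC content and length. The black circles run from -0.64 for EXTL2 to 0.61 for B4GALT7, and the diamonds from -0.33 to 0.32.

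With this correction the log2 fold change of B3GALT6 was -1.74 (standard error 0.11), that of B3GAT3 -0.35 (standard error 0.054) and that of EXT1 0.27 (standard error 0.069). These 3 members were the ones called then, beside 28.6% of all genes. Without OE replicate 1, 4 members were called, B3GALT6, B3GAT3, EXT1 and XYLT2, beside 28.5% of all genes. Nothing is read from these counts either, since the members were chosen on this comparison.

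Read depth could be estimated for B3GALT6. The whole-number steps of low FPKM values put the depth at 28800000 to 36400000 fragments a library, an estimate in which 93.0 to 98.8% of the low values came within 0.15 of a whole fragment. At that depth B3GALT6 had 1419, 1227 and 1796 fragments in NC and 394, 343 and 362 in OE. Exons of B3GALT6 overlapped those of no other gene in GENCODE 29. Those of XYLT1, XYLT2, EXTL2 and EXTL3 shared bases with a gene on the opposite strand, 405 bases with EXTL3-AS1 in the case of EXTL3. Whether strand was used in counting was not given in the sources used here, so reads of these pairs may not be told apart.

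B3GALT6 has a single exon, on chromosome 1 from 1232226 to 1235041, plus strand (GRCh38, GENCODE 29). Its neighbour SDF4, a calcium-binding protein of the Golgi, runs the other way, and in RefSeq the starts of both genes were 236 bases apart. The 300 bases around the B3GALT6 start are shown because SDF4 starts within them. The sequence is RefSeq, GRCh38.p14, chr1:1231987-1232286, plus strand, and covers 250 bases before the start and 50 after it. Capitals mark 3 motifs found on either strand, the GC box with the letters GGGCGG, the CCAAT box spelled as its name, and the E-box that reads CACGTG; no match overlaps another.
B3GALT6 promoter: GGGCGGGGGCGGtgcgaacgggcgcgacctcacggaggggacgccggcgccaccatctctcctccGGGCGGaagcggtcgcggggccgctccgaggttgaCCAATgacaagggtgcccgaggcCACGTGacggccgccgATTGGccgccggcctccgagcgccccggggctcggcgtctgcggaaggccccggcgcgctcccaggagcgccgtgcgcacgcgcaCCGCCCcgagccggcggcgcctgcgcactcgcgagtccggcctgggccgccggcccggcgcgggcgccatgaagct

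The window held 4 GC boxes, 2 CCAAT boxes and 1 CACGTG. Among 27305 promoters of the same length, 44.6% held a GC box, 35.7% a CCAAT box and 7.43% a CACGTG. The window was 79.7% GC, a value reached by 2.85% of promoters, whose median was 58.3%. It held no GTGGGCG (1 form of the core of the EGR motif, in 9.61% of promoters) and no TGANTCA (AP-1, 7.76%). It also held no TGACGT (the CRE core, 8.32%) and no TATAAA (11.95%). This says only that these letters were not in this window. Other forms of the EGR core were not searched, so the window may still hold an EGR motif. A promoter was given for 8 of the 10 members. CACGTG occurred in that of EXTL2 as well, CCAAT boxes in those of B3GALT6 and EXTL2, GC boxes in all but that of EXT2, which held a TATAAA, and a pair of TGACGT in that of B3GAT3. No match is a binding site by itself.

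SDF4 was at 118, 112 and 114 FPKM in NC and at 124, 92.2 and 147 FPKM in OE, so its groups overlapped. Its log2 fold change was 0.053 with a standard error of 0.16 (limma, adjusted p = 0.87 over all genes). Of the 5 protein-coding genes on either side of B3GALT6, TTLL10 was at 0 FPKM in all libraries, TNFRSF18, TNFRSF4 and C1QTNF12 were under the minimum, and LOC124905566 had no row under that symbol. TNFRSF18, a receptor of the tumour necrosis factor family, was at 0.617 ± 0.025 FPKM in NC and 0.273 ± 0.116 FPKM in OE (SD, n = 3 each). On the other side, the ubiquitin-conjugating enzyme gene UBE2J2 was at 0.27 on the log2 scale (standard error 0.11, adjusted p = 0.15), SCNN1D -0.48 (0.21, 0.18), ACAP3 -0.17 (0.14, 0.48) and PUSL1 0.41 (0.16, 0.15). None of these 5 fitted neighbours passed the threshold by limma, beside 11.4% of all genes, and 2 had an unadjusted p under 0.05, beside 28.2% of all genes (3477 of 12322). Without OE replicate 1, SCNN1D had an adjusted p of 0.028 and UBE2J2 of 0.018, and after the correction for GC content and length PUSL1 had one of 0.019; SDF4 was called under none of the 16 alternatives, at log2 fold changes of -0.10 to 0.24.

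**Figure D4:**
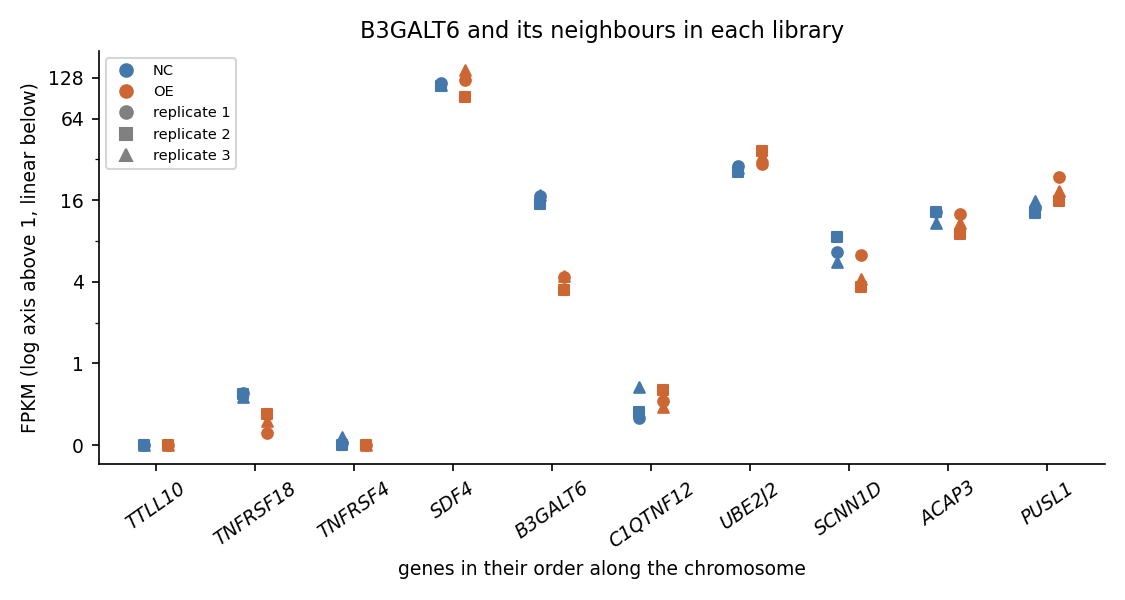
FPKM in each library of B3GALT6 and its protein-coding neighbours, in their order along the chromosome (vertical axis logarithmic above 1 and linear below; blue NC, orange OE, shapes give the replicate). SDF4 lies at 92.2 to 147 FPKM in both groups, while B3GALT6, the next gene, goes from 15.1 to 17.5 FPKM in NC to 3.51 to 4.45 FPKM in OE.

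The title of the series names the microRNA miR-520h beside circCSPP1, so the 3′ untranslated regions of the members were searched for matches to its seed. Its mature sequence from RefSeq is shown with the seed, bases 2 to 8, in capitals. The sites are those of the 3 members with a match of 7 bases (CACTTTG) and a fitted level, with the 6-base match (ACTTTG) in capitals, from the longest 3′ UTR of GENCODE 29.
hsa-miR-520h: aCAAAGUGcuucccuuuagagu
B3GALT6, bases 985 to 990 of a 3′ UTR of 1773: gttgtcccACTTTGggaccggg
B3GAT3, bases 272 to 277 of a 3′ UTR of 889: ccctttacACTTTGaagcctat
FAM20B, bases 395 to 400 of a 3′ UTR of 4418: gtggaaacACTTTGcaatctct

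Matches of 6 bases occurred in 6 members, XYLT1 with 3, FAM20B with 2, and B3GALT6, B3GAT3, EXT1 and EXT2 with 1 each. XYLT2, B4GALT7, EXTL2 and EXTL3 had 0. A 7-base match occurred in XYLT1, B3GALT6, B3GAT3 and FAM20B. Of 12235 fitted genes with a 3′ UTR, 48.5% held the 6-base match and 25.5% the 7-base match. A match is a description of letters and not a site.

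The 5 genes whose pattern over the 6 libraries was most like that of B3GALT6 were IGFBP4, COL13A1, CDH3, CDH1 and PRR29. Likeness was the root mean square distance between log2(FPKM + 1) values, each centred on its own mean, and it was 0.112, 0.131, 0.132, 0.160 and 0.189 for them. IGFBP4, a binding protein of insulin-like growth factors, was at 76.2, 71.2 and 77.2 FPKM in NC and at 26.9, 19.6 and 21.5 FPKM in OE. The collagen gene COL13A1 was at 13.8, 14.5 and 14.0 FPKM in NC and at 4.35, 3.48 and 3.61 FPKM in OE, close to B3GALT6 in level too. P-cadherin (CDH3) was at 111, 105 and 108 FPKM in NC and 40.6, 30.6 and 33.4 FPKM in OE, and E-cadherin (CDH1) at 11.5, 11.4 and 9.81 FPKM in NC and 3.18, 2.44 and 3.41 FPKM in OE. They were picked for this likeness, so no test was made.

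The other genes of the pathway were taken as 8 lists of 123 genes, of which 122 were found and 88 fitted. In these lists 1 gene rose and 8 fell at an adjusted p under 0.05, together 10.2% of those fitted beside 11.4% of all genes, and their median log2 fold change was -0.069. The lists were drawn up with earlier results of these data known. None of 7 other linker and heparan sulfate enzymes, 14 chondroitin and dermatan sulfate enzymes, 10 other beta-galactosyltransferases or 14 genes of Golgi structure and trafficking was called by limma at this threshold, with medians of -0.032, -0.27, -0.031 and -0.091. At an unadjusted p under 0.05 the numbers were 2, 4, 3 and 4, beside 28.2% of all genes, and after the correction for GC content and length 4, 4, 2 and 3 passed the adjusted threshold, beside 28.6% of all genes. The most abundant of these lists were NDST1, an N-deacetylase and N-sulfotransferase of heparan sulfate (log2 fold change 0.37, standard error 0.10, adjusted p = 0.058), CHST15, a chondroitin sulfotransferase (-0.35, 0.093, 0.051), the galactosyltransferase B4GALT1 (-0.029, 0.076, 0.85) and the Golgi protein GOLPH3 (0.29, 0.090, 0.080). Without OE replicate 1 the adjusted p was 0.026 for NDST1, 0.027 for CHST15 and 0.0068 for GOLPH3.

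Among the 9 fitted core proteins that carry heparan sulfate, 3 fell and 1 rose by limma (median -0.070). Together these were 44.4% of the list, beside 11.4% of all genes tested (6.66% lower and 4.69% higher). The list was drawn up with earlier results of these data known, so nothing is read from this count. Perlecan (HSPG2), a large basement membrane proteoglycan, was at 186, 173 and 182 FPKM in NC and at 124, 75.7 and 85.9 FPKM in OE. It fell by 0.95 on the log2 scale (standard error 0.17, limma adjusted p = 0.015). Collagen XVIII (COL18A1), which also carries heparan sulfate in basement membranes, was at 36.2, 40.2 and 36.8 FPKM in NC and 25.8, 23.3 and 20.4 FPKM in OE (log2 fold change -0.69, standard error 0.11, adjusted p = 0.011). Betaglycan (TGFBR3), a co-receptor for TGF-beta, was low throughout, at 2.56, 2.62 and 2.58 FPKM in NC and 1, 1.17 and 1.2 FPKM in OE, and it fell by 0.76 (standard error 0.10, adjusted p = 0.0060).

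The gene that rose was syndecan 4 (SDC4), a transmembrane proteoglycan, at 163, 158 and 146 FPKM in NC and 201, 192 and 190 FPKM in OE (log2 fold change 0.32, standard error 0.075, adjusted p = 0.036). Agrin (AGRN) was the most abundant of this list and was at 226, 225 and 220 FPKM in NC and 275, 179 and 196 FPKM in OE (log2 fold change -0.070, standard error 0.15, adjusted p = 0.81). In AGRN, as in XYLT2 and B4GALT7, OE replicate 1 was the highest library and OE replicate 2 the lowest, and without OE replicate 1 its log2 fold change was -0.25 with an adjusted p of 0.020. Without an NC library the adjusted p of HSPG2 was 0.063 to 0.071 and without OE replicate 3 it was 0.064. That of COL18A1 was 0.051 to 0.067 without an NC library, and that of SDC4 was 0.11 to 0.15. TGFBR3 kept an adjusted p under 0.05 without any 1 library.

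Of the 6 fitted core proteins that carry chondroitin sulfate, 1 was called by limma, CSPG4, which fell. This was 16.7% of the list, beside 11.4% of all genes tested, and the median of the list was -0.17. At an unadjusted limma p under 0.05 there were 3 lower and 1 higher, 66.7% of the list beside 28.2% of all genes. This list too was drawn up with earlier results of these data known, so nothing is read from these counts. CSPG4, also called NG2, was at 4.09, 4.03 and 3.24 FPKM in NC and at 1.67, 1.03 and 1.21 FPKM in OE (log2 fold change -1.06, standard error 0.14, adjusted p = 0.0064). It too was called without any 1 library. The most abundant of this list, APLP2, was at 501 to 514 FPKM in NC and 496 to 507 FPKM in OE (log2 fold change -0.015, standard error 0.059, adjusted p = 0.90).

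Among 19 genes that supply sugar nucleotides and activated sulfate, 3 fell and none rose by limma (median -0.065). This was 15.8% of the list, beside 11.4% of all genes tested. At an unadjusted p under 0.05 there were 5 lower and 2 higher, beside 28.2% of all genes in either direction. PAPSS1 and PAPSS2 make PAPS, the sulfate donor of the sulfotransferases. PAPSS2 was at 11.4, 11.3 and 11.1 FPKM in NC and at 6.38, 7.23 and 7.19 FPKM in OE (log2 fold change -0.63, standard error 0.10, adjusted p = 0.011). PAPSS1 was at 29.2, 28.8 and 27.1 FPKM in NC and 21.9, 22.3 and 20.5 FPKM in OE (-0.38, 0.089, 0.036). The groups were apart for both synthases. PGM3, an enzyme of UDP-N-acetylglucosamine synthesis, was at 20.1, 20.4 and 21.9 FPKM in NC and 13.04, 15.5 and 16.6 FPKM in OE (-0.45, 0.11, 0.047). UGDH, which makes UDP-glucuronic acid and was the most abundant of the list, was at 126, 117 and 143 FPKM in NC and 81.4, 163 and 138 FPKM in OE, a spread in OE that held all of the NC values (-0.065, 0.24, 0.89).

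Of 9 fitted genes of heparan sulfate degradation (median -0.045), 1 was called by limma, 11.1% beside 11.4% of all genes tested. This was heparanase (HPSE), which cleaves the chains outside the cell. It fell from 9.57, 9.50 and 9.17 FPKM in NC to 6.5, 7.33 and 6.32 FPKM in OE (log2 fold change -0.43, standard error 0.10, adjusted p = 0.038). The calls of PAPSS2, PAPSS1, PGM3 and HPSE were lost when any 1 NC library was left out, with adjusted p of 0.056 to 0.069, 0.11 to 0.17, 0.15 to 0.17 and 0.13 to 0.16. Without OE replicate 3 the adjusted p was 0.14 for PAPSS1, 0.082 for PGM3, 0.14 for HPSE and 0.11 for SDC4, and without OE replicate 2 it was 0.053 for PAPSS1, 0.069 for PGM3 and 0.058 for SDC4.

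**Figure D5:**
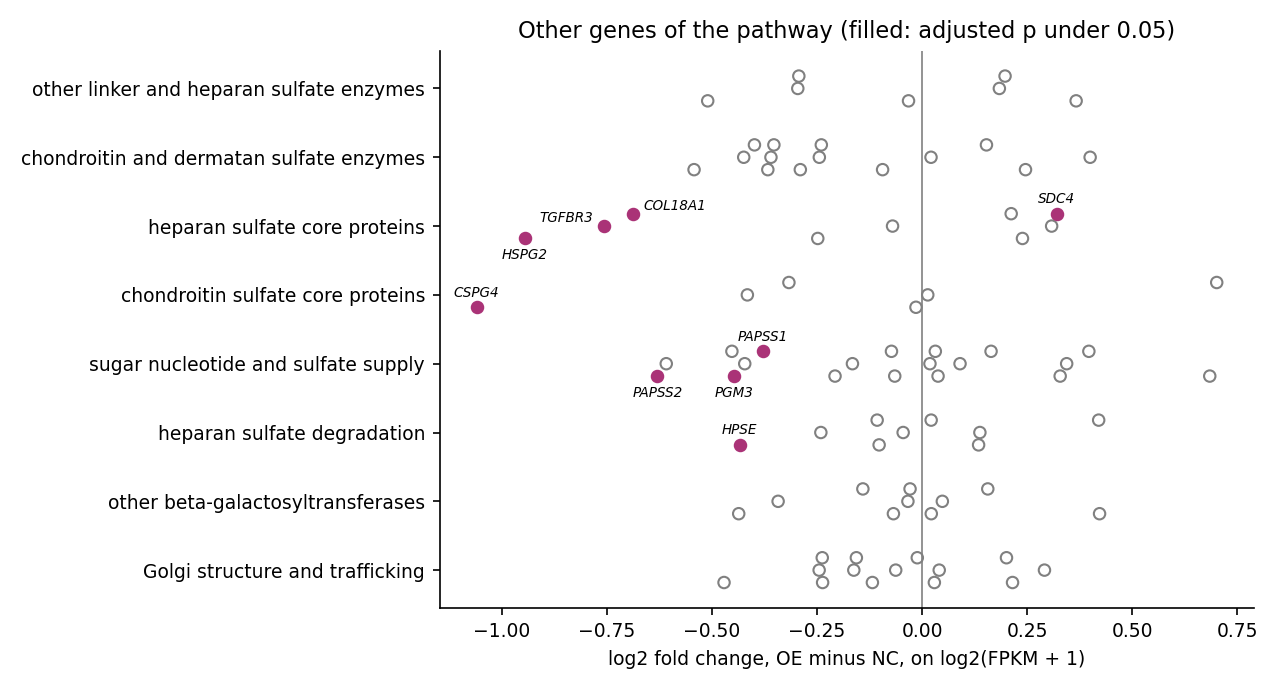
Log2 fold change (OE minus NC, on log2(FPKM + 1)) of the 88 fitted genes in 8 pathway lists; each circle is a gene, and filled circles with a name are genes with an adjusted p under 0.05. Of the 9 filled circles, 8 lie on the left, from -1.06 for CSPG4 to -0.38 for PAPSS1, and SDC4 lies on the right at 0.32.

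Markers of cell type moved with the groups and are given beside these values. All 5 epithelial markers (EPCAM, CDH1, KRT8, KRT18 and KRT19) fell at a limma adjusted p under 0.05, beside 6.66% of all genes tested. Their summed level, mostly of the keratins, was 2271 to 2361 FPKM in NC and 1046 to 1278 FPKM in OE. EPCAM averaged 20.4 FPKM in NC and 12.6 FPKM in OE, and CDH1 10.9 and 3.01 FPKM. The prostate luminal markers KLK2, KLK3 and FOLH1 were at 0 in all 6 libraries. The 4 leukocyte markers summed to 2.46 FPKM at most, nearly all of it CD14, with CD3E at 0, and the 3 endothelial markers to 0.62 at most. The 4 fibroblast markers summed to 2.98 to 4.31 FPKM in NC and 1.35 to 1.98 FPKM in OE, mostly COL1A1, which fell by 0.97 on the log2 scale (standard error 0.15, limma adjusted p = 0.010). The part of these markers in the values of B3GALT6 or the pathway genes was not tested.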

How the data were processed

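Total RNA of 6 DU145 libraries was sequenced. The authors deposited a table of FPKM (fragments per length of transcript and per depth of library) with 2 decimals for 19727 genes; the build was hg38 per the labels, and aligner, counter and annotation were not given in the sources used here. Columns were matched to samples by name. Values were analysed as log2(FPKM + 1) for the 12322 genes averaging 1 FPKM or more, and OE was compared with NC with limma 3.58.1 in R 4.3.3 (trended empirical Bayes, two-sided) with Benjamini-Hochberg adjustment at 0.05. The fit was tested on simulated data with errors drawn independently for each gene and library. Those data held no shift with GC content or length, so the simulation does not cover such shifts. With 3 libraries a group, an exact permutation test of 1 gene cannot go below p = 0.10, so none was used. GC content, length and 3′ UTRs came from GENCODE 29 and were used in a loess correction (span 0.3) of each library. The members and lists were chosen with earlier results of these data known. Genes were named by rule: all members, called genes (up to 4 a direction) and the most abundant gene of each list, the 5 protein-coding neighbours on either side, and the 5 most similar genes. Some genes that this rule or the marker lists hold are not reported here. The alternatives numbered 16.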

Additional observations from a re-analysis of the deposited data

How the results depend on the processing

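B3GALT6, chosen for this difference and given as a description, had log2 fold changes of -1.85 to -1.70 when any 1 library was left out. They were -1.995 with a pseudocount of 0.1 and -2.02 with 0.01. The median of the members ran from -0.26 to -0.13. Without OE replicate 1, B4GALT7 was at -0.06 and EXTL2 at 0.08, both uncalled. The pathway genes called higher, 1 in the report, were 3 after rescaling to TPM, 3 with median-ratio scaling, 0 with quantile normalization, 11 after the correction for GC content and length, and 0 to 9 with 1 library left out. Those called lower, 8 in the report, were 20 after that correction and 2 to 17 with 1 library left out. Of all tested genes, 1399 in the report, 834 were called with no moderation of the variance, 3520 after the GC and length correction, and 300 to 3512 with 1 library left out. Without NC replicates 1, 2 and 3, 300, 317 and 407 genes were called (2 pathway genes lower and 0 higher each time), without OE replicate 3, 450 (4 lower, 0 higher), and without OE replicate 1, 3512 (17 lower, 9 higher). Over the alternatives the limma adjusted p ran from 0.0020 to 0.042 for TGFBR3, 0.00094 to 0.042 for CSPG4, 0.0029 to 0.067 for COL18A1, 0.0013 to 0.069 for PAPSS2, 0.00070 to 0.086 for HSPG2, 0.014 to 0.15 for SDC4, 0.015 to 0.16 for HPSE, 0.013 to 0.17 for PAPSS1 and 0.018 to 0.17 for PGM3. TGFBR3 and CSPG4 averaged under 5 FPKM, so they were not fitted in the alternative with that minimum. Their ranges cover 15 alternatives. The causes were not tested.

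The series' design text speaks of paired samples, without saying what a shared number marks. Deviations of same-numbered libraries from their group means correlated at 0.073, 0.0065 and 0.057, and not every library correlated best with its own number, so they were not treated as pairs. With the replicate block, 923 genes were called, and of the pathway genes 5 were lower and 1 higher. SDC4, PAPSS1, PGM3 and HPSE lost their calls, at adjusted p of 0.078, 0.088, 0.074 and 0.090. The gene higher was BCAN, named after its values were seen (log2 fold change 0.70, adjusted p = 0.024 with the block and 0.056 without it); the calls of HSPG2, COL18A1, TGFBR3, CSPG4 and PAPSS2 were kept.

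FPKM carries no counts, and fragments of the members were only estimated from its steps. The precision of low genes was given as the spread of 3 libraries, and none was worked out from these estimates. XYLT1 lay at 0 to 7 estimated fragments.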
